A study of Saccharomyces cerevisiae x Saccharomyces kudriavzevii and Saccharomyces cerevisiae with 12 samples.

Results

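The chaperones of the HSP70, HSP90 and HSP104 families, their co-chaperones and the heat shock factor HSF1 were represented by 33 ORFs among the 6178 ORFs of the arrays. The ORFs were taken by systematic name from a list defined by family (SSA, SSB, SSE, SSC1, KAR2, LHS1, HSP82, HSC82, HSP104, HSP78, HSP60, HSP10, J proteins, HSP90 co-chaperones and HSF1), and the rule used no measured value. The table of values holds systematic names only, so the family of each ORF follows the definition of the list and the usual yeast nomenclature, and was not checked against an annotation. Two-colour arrays compared each of the hybrids VIN7 and Lalvin W27, which are wine yeasts carrying genes of *Saccharomyces cerevisiae* and *S. kudriavzevii*, with *S. cerevisiae* Lalvin T73, a wine yeast with the *S. cerevisiae* genome alone. In both hybrids most genes are present in more *S. cerevisiae* than *S. kudriavzevii* copies. How *S. kudriavzevii* transcripts bind to the *S. cerevisiae* spots was not assessed. The cells came from Tempranillo must fermented at 12 or 28 °C and were collected when the stationary phase began. There were 3 arrays (A, B and C) for each of VIN7 and Lalvin W27 at each temperature, 12 arrays in all. All values below are log2 ratios of hybrid over T73 at the same temperature, so 1 means 2-fold more signal in the hybrid and -1 means 2-fold less. A level of a gene in one strain alone cannot be read from them, and since every ratio has T73 as its base, the values of the hybrids are not independent of each other.

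HSP70 proteins hold unfolded stretches of other proteins and release them in cycles of ATP use. J proteins deliver the client and speed up ATP hydrolysis, and exchange factors of the SSE and LHS1 type reset the cycle. HSP90 acts later, on nearly folded clients, together with a set of co-chaperones, while HSP104 pulls proteins out of aggregates and hands them back to HSP70. Many of these genes are targets of HSF1, the transcription factor of the heat shock response, and in yeast they are known to respond to ethanol as well as to temperature.

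All 33 ORFs had a value on at least 2 arrays of every group. The missing values were those of YDL229W on array C of Lalvin W27 at 12 °C and of YBR101C on array B of VIN7 at 28 °C. A pair of values was extreme, -16.68 for YGR285C on array A of VIN7 at 28 °C and -8.94 for YDL229W on array A of Lalvin W27 at 28 °C. Over all ORFs there were 76 values beyond 8 in either direction. The hybrid always carried Cy3 and T73 always Cy5, so strain and dye cannot be told apart, and the direction of the ratio is the likely one. Array C of VIN7 at 28 °C stood apart. Over all ORFs it correlated at -0.377 to -0.704 with 4 of the 6 arrays of 12 °C, whereas the lowest correlation among the pairs without it was 0.045. Its correlation with each of the other arrays of its own group was 0.056 to 0.057. Its direction is therefore not settled, and the main counts, medians and means that rest on it are also given with its sign turned and without it.

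The median chaperone lay below T73 on every array of 12 °C in both hybrids, above T73 on every array of VIN7 at 28 °C and below it on 2 of 3 arrays of Lalvin W27 at 28 °C. At 12 °C the median of the 33 ORFs was -0.87, -0.54 and -0.15 on arrays A, B and C of VIN7 and -0.45, -0.80 and -1.18 on those of Lalvin W27. At 28 °C it was 0.40, 0.35 and 2.37 in VIN7 and -0.50, 0.35 and -0.44 in Lalvin W27. The median of all ORFs stayed between -0.14 and 0.30 on the 12 arrays. Most of the height of the VIN7 group at 28 °C was thus on array C, while its arrays A and B lay near array B of Lalvin W27. The arrays also differed in spread. At 12 °C 8.84% of all ORFs lay beyond 2-fold on array A of Lalvin W27 and 49.4% on array B of VIN7. These were the lowest and highest shares of the 12 arrays.

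**Figure D1:**
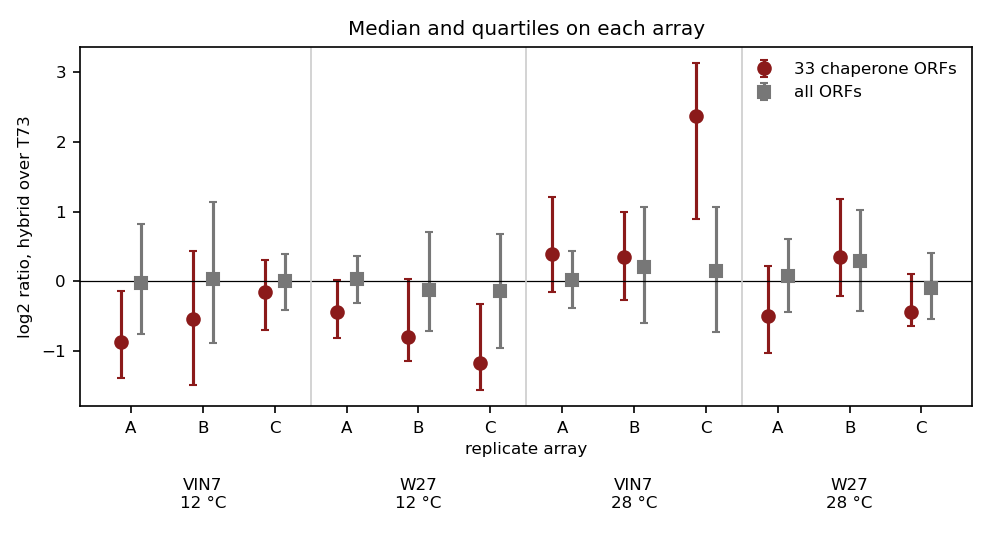
Median log2 ratio (hybrid over T73) of the 33 chaperone ORFs (circles) and of all ORFs (squares) on each of the 12 arrays, with bars from the lower to the upper quartile. The chaperone medians lie below 0 on the 6 arrays of 12 °C and reach 2.37 on array C of VIN7 at 28 °C.

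The 2-fold cut-off, which is not a test, asked for a median log2 ratio of 1 or more, or of -1 or less, from the arrays of a group, with 2 or more arrays measured. At 12 °C no chaperone passed it with a higher ratio in VIN7 or in Lalvin W27 (all ORFs 13.9% and 10.6%). With a lower ratio 9 of 33 passed in VIN7 and 11 of 33 in Lalvin W27 (all ORFs 11.9% and 11.2%). The 9 ORFs in VIN7 were YBL075C, YDL229W, YBR169C, YMR186W, YNL281W, YLL026W, YDR258C, YLR259C and YHR064C. At 28 °C 12 of 33 passed with a higher ratio in VIN7 and 1 of 33 in Lalvin W27 (all ORFs 11.3% and 7.76%). The 12 ORFs in VIN7 were 7 of the HSP70 family, YPL240C (HSP82), YLL026W (HSP104), YOR020C (HSP10), YBR101C and YHR064C. None passed with a lower ratio in VIN7 and 3 of 33 in Lalvin W27 (all ORFs 5.48% and 6.08%), which were YOR027W, YLL026W and YLR259C. With the arrays recentred and scaled to a common spread the counts in Lalvin W27 at 28 °C were 0 higher and 4 lower. The count of 12 in VIN7 at 28 °C became 6 with the sign of array C turned, 8 without array C, 21 without array A and 20 without array B. The count of 11 in Lalvin W27 at 12 °C was 4 without its array C, which had the lowest chaperone median of that group. Of all ORFs 42.0% lay beyond 2-fold on that array, 34.0% on array B and 8.84% on array A. The count over all ORFs without array C was not made. In Lalvin W27 at 28 °C 6 ORFs passed with a lower ratio without array B, and 3, 0 and 2 with a higher ratio without array A, B and C.

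The signs on the single arrays gave a similar picture. In VIN7 at 12 °C 1 ORF was above 0 and 14 were below 0 on all 3 arrays (all ORFs 21.4% and 21.8%), and in Lalvin W27 at 12 °C 1 was above and 16 below (all ORFs 21.9% and 25.1%). In VIN7 at 28 °C 14 were above 0 and 1 was below on all 3 arrays (all ORFs 19.9% and 13.3%). With the sign of array C turned these counts were 0 and 6, and on arrays A and B alone they were 14 and 7. The shares of all ORFs in these settings were not counted. In Lalvin W27 at 28 °C 4 were above and 7 below (all ORFs 19% and 14.6%). The median over the ORFs of the mean of each was -0.52 in VIN7 and -0.74 in Lalvin W27 at 12 °C, and 1.12 in VIN7 and -0.20 in Lalvin W27 at 28 °C. The same medians over all ORFs were 0.04, -0.06, 0.17 and 0.15. For VIN7 at 28 °C the chaperone median was -0.48 with array C turned and 0.32 without it.

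In the limma fit across all ORFs, no chaperone had a Benjamini-Hochberg adjusted p under 0.05 for the ratio of hybrid over T73 in any group. At 12 °C the fit called 0.551% of all ORFs in VIN7 and 0% in Lalvin W27, and at 28 °C 0.0162% in VIN7 and 0.0324% in Lalvin W27. At an unadjusted p under 0.05 there were 0 higher and 6 lower chaperones in VIN7 at 12 °C (all ORFs 11.9% and 9.15%) and 0 higher and 6 lower in Lalvin W27 at 12 °C (all ORFs 7.55% and 7.19%). In VIN7 at 28 °C there were 16 higher and 0 lower (all ORFs 10.1% and 3.78%), and in Lalvin W27 at 28 °C 2 higher and 2 lower (all ORFs 6.14% and 3.89%). The fit shares 1 spread per ORF over the 4 groups. The median SD of the chaperones was 1.12 in VIN7 at 28 °C but 0.60 in Lalvin W27 at 12 °C. When each group was fitted alone, 8 were higher in VIN7 at 28 °C. At 12 °C 8 were then lower in VIN7 and 11 in Lalvin W27. The shares of all ORFs in those fits were not counted. With array C of VIN7 at 28 °C turned, its counts were 0 higher and 2 lower, and without that array 6 higher and 2 lower. The 6 lower chaperones of VIN7 at 12 °C became 3, 2 and 5 without array A, B and C, and the 6 of Lalvin W27 at 12 °C became 4, 2 and 0. Where no adjusted p passed, the values of single ORFs are given as levels relative to T73 and not as changes.

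**Figure D2:**
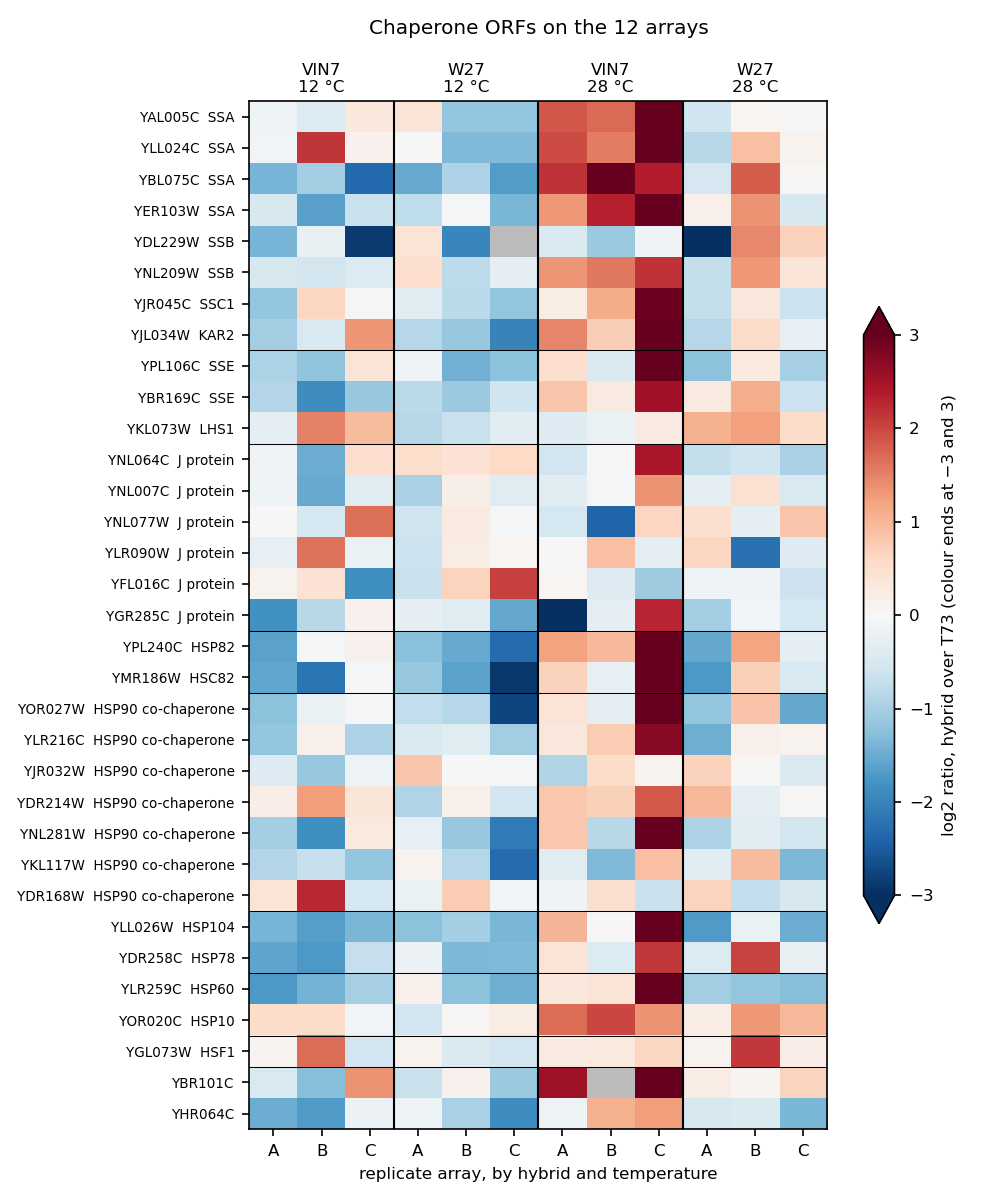
Map of the log2 ratios (hybrid over T73) of the 33 chaperone ORFs (rows, by family) on the 12 arrays (columns, by hybrid and temperature), red above 0, blue below 0 and grey missing, with the colour ending at -3 and 3. The 4 SSA ORFs are above 0 on all 3 arrays of VIN7 at 28 °C, and the J proteins are mixed in every group.

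Of the 8 HSP70 ORFs, 7 passed the 2-fold cut-off with a higher ratio in VIN7 at 28 °C (all ORFs 11.3%). The same 7 were above 0 on all 3 arrays there (all ORFs 19.9%). With array C turned 5 of the 8 passed and 0 were above 0 on all 3 arrays. Without array C 6 passed and 7 were above 0 on both arrays left, which is easier to meet than on 3. The shares of all ORFs in these settings were not counted. None of the 8 passed in Lalvin W27 at 28 °C (all ORFs 7.76% higher and 6.08% lower). The 4 SSA ORFs encode cytosolic HSP70, the general chaperone of new and damaged proteins. YBL075C had log2 ratios of -1.40, -1.03 and -2.34 in VIN7 and -1.51, -0.93 and -1.67 in Lalvin W27 at 12 °C (arrays A, B and C, as in all sentences that follow). At 28 °C its ratios were 2.16, 3.98 and 2.37 in VIN7 and -0.50, 1.83 and 0.04 in Lalvin W27. It was below 0 on all arrays of 12 °C in both hybrids and above 0 on all arrays of VIN7 at 28 °C, where it was the SSA ORF with the highest mean, 2.84 ± 1.00 (SD, n = 3), and a median 5.15-fold above T73. Its adjusted p in the limma fit at 12 °C was 0.137 in VIN7 and 0.316 in Lalvin W27, and at 28 °C 0.0875 in VIN7 and 0.797 in Lalvin W27. In VIN7 at 28 °C it averaged 1.26 with array C turned and 3.07 without array C, so that its side of T73 did not hang on that array. The adjusted p there was 0.0495 without array A, and over all alternatives it lay between 0.0265 and 0.688. The lowest came from a block by replicate letter, and the share of all ORFs called without array A was not counted.

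YER103W gave -0.48, -1.63 and -0.66 in VIN7 and -0.77, -0.07 and -1.38 in Lalvin W27 at 12 °C. At 28 °C it gave 1.29, 2.33 and 3.13 in VIN7 and 0.15, 1.35 and -0.49 in Lalvin W27. Like YBL075C it was below T73 on all arrays of 12 °C, above T73 on all arrays of VIN7 at 28 °C and on both sides of T73 in Lalvin W27 at 28 °C. YAL005C measured -0.13, -0.41 and 0.32 in VIN7 and 0.38, -1.17 and -1.16 in Lalvin W27 at 12 °C. At 28 °C YAL005C measured 1.86, 1.69 and 4.11 in VIN7 and -0.59, 0.05 and -0.07 in Lalvin W27, where the hybrids did not overlap. The fourth ORF of the family, YLL024C, had ratios of -0.09, 2.15 and 0.14 in VIN7 and 0.02, -1.32 and -1.31 in Lalvin W27 at 12 °C. At 28 °C YLL024C had 1.97, 1.53 and 3.36 in VIN7 and -0.82, 0.91 and 0.11 in Lalvin W27. YAL005C and YLL024C were thus close to T73 in VIN7 at 12 °C, except on array B for YLL024C, and were 2.24-fold and 2.49-fold below T73 by the median in Lalvin W27. The means of YAL005C, YLL024C and YER103W in VIN7 at 28 °C were 2.55, 2.29 and 2.25 as deposited, 1.77, 1.75 and 1.81 without array C, and -0.19, 0.05 and 0.16 with array C turned. SSA genes are similar to each other in sequence, and how far their spots share signal was not assessed.

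The SSB family of HSP70 works at the ribosome on growing chains, and its 2 ORFs did not go together. YNL209W had -0.48, -0.54 and -0.40 in VIN7 and 0.50, -0.79 and -0.28 in Lalvin W27 at 12 °C. At 28 °C it had 1.32, 1.58 and 2.16 in VIN7 and -0.71, 1.30 and 0.39 in Lalvin W27, and in VIN7 its arrays lay close together on each side of 0, with a mean of -0.47 ± 0.07 at 12 °C and 1.69 ± 0.43 at 28 °C (SD, n = 3). The mean at 28 °C was 0.25 with array C turned and 1.45 without it. YDL229W, the exception among the HSP70 ORFs, had -1.40, -0.23 and -2.86 in VIN7 at 12 °C and 0.40 and -1.97 on arrays A and B of Lalvin W27. At 28 °C YDL229W had -0.44, -1.10 and -0.10 in VIN7 and -8.94, 1.43 and 0.70 in Lalvin W27. It was below T73 on the 6 arrays of VIN7, and its mean of -2.27 in Lalvin W27 at 28 °C rested on the extreme value of array A.

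SSC1 and KAR2 are the HSP70 proteins of the mitochondrial matrix and of the endoplasmic reticulum, and both help to draw newly made proteins into their organelle. YJR045C (SSC1) gave -1.15, 0.62 and -0.03 in VIN7 and -0.34, -0.80 and -1.19 in Lalvin W27 at 12 °C. At 28 °C YJR045C gave 0.23, 1.12 and 2.93 in VIN7 and -0.71, 0.35 and -0.64 in Lalvin W27. YJL034W (KAR2) gave -1.04, -0.46 and 1.33 in VIN7 and -0.85, -1.13 and -2.01 in Lalvin W27 at 12 °C, where it was below T73 on all arrays of Lalvin W27 and spread over both sides in VIN7. At 28 °C YJL034W gave 1.45, 0.73 and 5.11 in VIN7 and -0.85, 0.58 and -0.25 in Lalvin W27. Both ORFs owed most of their VIN7 mean at 28 °C to array C, and with it turned the means of 1.43 for YJR045C and 2.43 for YJL034W became -0.53 and -0.98. Without array C the mean was 0.68 for YJR045C and 1.09 for YJL034W.

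**Figure D3:**
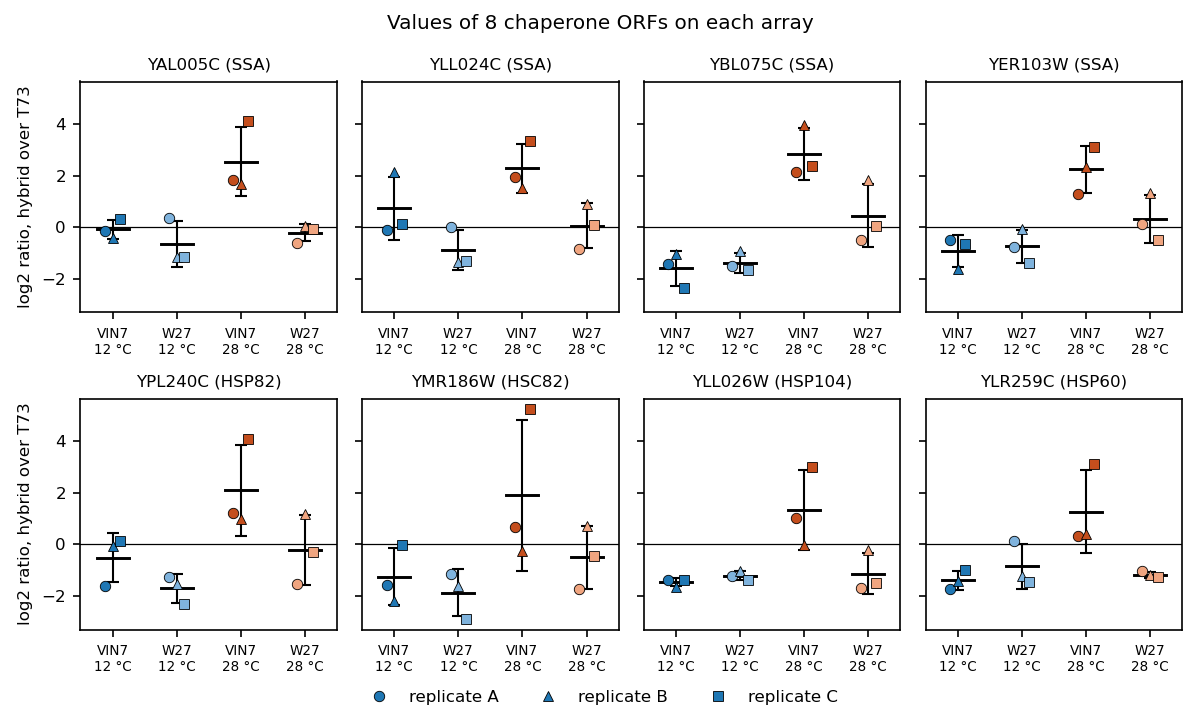
Log2 ratio (hybrid over T73) of the 4 SSA ORFs, HSP82, HSC82, HSP104 and HSP60 on each array of the 4 groups, with 1 symbol per replicate array, a line at the mean and bars of 1 SD. HSP104 is below 0 on the 6 arrays of 12 °C, and array C (square) is the highest array of VIN7 at 28 °C for all plotted ORFs except YBL075C.

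The SSE ORFs YPL106C and YBR169C and the LHS1 ORF YKL073W encode relatives of HSP70 that serve HSP70 as exchange factors, LHS1 in the endoplasmic reticulum. YBR169C had -0.87, -1.86 and -1.15 in VIN7 and -0.82, -1.12 and -0.60 in Lalvin W27 at 12 °C, all below T73. At 28 °C YBR169C had 0.82, 0.27 and 2.52 in VIN7 and 0.26, 1.10 and -0.65 in Lalvin W27. YPL106C had -0.95, -1.20 and 0.39 in VIN7 and -0.10, -1.45 and -1.24 in Lalvin W27 at 12 °C. YPL106C was on both sides of T73 at 28 °C, with 0.49, -0.46 and 3.00 in VIN7 and -1.22, 0.30 and -0.99 in Lalvin W27. The ratios of YKL073W were -0.30, 1.51 and 0.94 in VIN7 and -0.84, -0.66 and -0.35 in Lalvin W27 at 12 °C. At 28 °C YKL073W had -0.38, -0.20 and 0.27 in VIN7 and 1.08, 1.23 and 0.56 in Lalvin W27, where all arrays were above those of VIN7. In Lalvin W27 at 28 °C it was the only chaperone past the 2-fold cut-off with a higher ratio, 2.11-fold by the median (adjusted p = 0.465), and the next, the HSP10 ORF YOR020C, was just short of it with a median log2 ratio of 0.997.

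The 6 J proteins (YNL064C, YNL007C, YNL077W, YLR090W, YFL016C and YGR285C) had no ORF past the 2-fold cut-off in any group as deposited. Of all ORFs 5.48% to 13.9% passed in a given direction and group. In VIN7 at 28 °C 1 J protein passed with a lower ratio with array C turned and 2 without array C. The shares of all ORFs in these settings were not counted. Their means lay between -0.83 and 0.40 in VIN7 and between -0.73 and 0.69 in Lalvin W27 at 12 °C. At 28 °C they lay between -4.89 and 0.62 in VIN7, where the lower end was YGR285C with its extreme value, and between -0.76 and 0.35 in Lalvin W27. The median of the 6 means in VIN7 at 28 °C was -0.13, against 2.27 for the 8 HSP70 ORFs. With array C turned these medians were -0.79 for the J proteins and -0.07 for the HSP70 ORFs, and without it -0.24 and 1.60. The J proteins were also split over both sides of T73 at 12 °C, where 4 of 6 means were below 0 in VIN7 and 4 of 6 in Lalvin W27 (all ORFs 48.4% and 53.2%).

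HSP90 itself is encoded by YPL240C (HSP82), the form known to be strongly heat inducible, and YMR186W (HSC82), the form made in quantity without stress. YPL240C had -1.60, -0.07 and 0.12 in VIN7 and -1.26, -1.52 and -2.32 in Lalvin W27 at 12 °C. At 28 °C YPL240C had 1.21, 0.97 and 4.11 in VIN7 and -1.54, 1.19 and -0.29 in Lalvin W27. YPL240C was below T73 on all arrays of Lalvin W27 at 12 °C, 2.87-fold by the median, and near T73 on 2 of 3 arrays of VIN7. YMR186W had -1.55, -2.18 and -0.03 in VIN7 and -1.13, -1.60 and -2.89 in Lalvin W27 at 12 °C. At 28 °C it had 0.70, -0.24 and 5.25 in VIN7 and -1.73, 0.71 and -0.47 in Lalvin W27, and array C of VIN7 held the highest value of any chaperone on any array. With that array turned, the VIN7 means at 28 °C of 2.10 for YPL240C and 1.90 for YMR186W became -0.64 and -1.60, and without it they were 1.09 and 0.23.

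The HSP90 co-chaperones bind HSP90 to bring clients or to set the pace of its ATP cycle, and 7 ORFs of this kind were followed (YOR027W, YLR216C, YJR032W, YDR214W, YNL281W, YKL117W and YDR168W). Only YNL281W passed the 2-fold cut-off at 12 °C. It had -1.01, -1.84 and 0.30 in VIN7 and -0.26, -1.15 and -2.10 in Lalvin W27, with 0.81, -0.82 and 3.12 in VIN7 and -0.92, -0.32 and -0.54 in Lalvin W27 at 28 °C. The means of the 7 ORFs had a median of -0.56 in VIN7 and -0.62 in Lalvin W27 at 12 °C, and 1.04 in VIN7 and -0.24 in Lalvin W27 at 28 °C. The value of VIN7 at 28 °C was -0.54 with array C turned and 0.07 without it. YDR214W was the one co-chaperone above T73 on all arrays of VIN7 at 12 °C, with a mean of 0.61 ± 0.58 (SD, n = 3), and it averaged -0.44 in Lalvin W27. YOR027W was the one co-chaperone past the cut-off in Lalvin W27 at 28 °C, with a median 2.25-fold below T73. It was above T73 on array B there (0.87), and its mean was -0.62 (limma adjusted p = 0.795).

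The 2 disaggregase ORFs passed the cut-off with a lower ratio in both hybrids at 12 °C, and the arrays of HSP104 lay close together there. YLL026W (HSP104) had -1.38, -1.65 and -1.38 in VIN7 and -1.24, -1.02 and -1.37 in Lalvin W27, or -1.47 ± 0.16 in VIN7 and -1.21 ± 0.17 in Lalvin W27 (SD, n = 3 each). Its adjusted p was 0.142 in VIN7 and 0.330 in Lalvin W27. At 28 °C YLL026W had 1.02, -0.01 and 3.02 in VIN7 and -1.69, -0.21 and -1.49 in Lalvin W27, where all arrays stayed below T73. The mean of YLL026W in VIN7 at 28 °C was 1.34 as deposited, -0.67 with array C turned and 0.51 without it. YDR258C (HSP78), the relative of HSP104 in mitochondria, had -1.58, -1.72 and -0.69 in VIN7 and -0.18, -1.36 and -1.32 in Lalvin W27 at 12 °C. At 28 °C YDR258C had 0.40, -0.41 and 2.12 in VIN7 and -0.42, 2.03 and -0.21 in Lalvin W27, on both sides of T73 in each hybrid.

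HSP60 and HSP10 form the folding chamber of mitochondria and its lid, and their ratios were not alike. YLR259C (HSP60) had -1.73, -1.43 and -0.99 in VIN7 and 0.15, -1.23 and -1.47 in Lalvin W27 at 12 °C. At 28 °C YLR259C had 0.31, 0.40 and 3.12 in VIN7, above T73 on each array, and -1.04, -1.19 and -1.27 in Lalvin W27, below T73 on each array. The mean of YLR259C in VIN7 at 28 °C was 1.28 as deposited, -0.80 with array C turned and 0.36 without it. YOR020C (HSP10) had 0.56, 0.56 and -0.08 in VIN7 and -0.57, 0.04 and 0.23 in Lalvin W27 at 12 °C. Its mean of 0.345 in VIN7 was among the 8 of 33 above 0. In Lalvin W27 its mean was -0.10, and 4 of 33 were above 0. At 28 °C YOR020C had 1.68, 2.01 and 1.35 in VIN7 and 0.23, 1.31 and 1.00 in Lalvin W27, above T73 on the 6 arrays, with means of 1.68 ± 0.33 in VIN7 and 0.84 ± 0.56 in Lalvin W27 (SD, n = 3 each). The adjusted p of YOR020C at 28 °C was 0.117 in VIN7 and 0.465 in Lalvin W27. Its arrays of VIN7 held together, and the mean was 0.78 with array C turned and 1.85 without it.

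HSF1 (YGL073W) is the factor that binds heat shock elements in promoters of this class, and its own ORF did not pass the 2-fold cut-off in any group. It had 0.08, 1.67 and -0.57 in VIN7 and 0.11, -0.44 and -0.57 in Lalvin W27 at 12 °C, and 0.27, 0.30 and 0.61 in VIN7 and 0.10, 2.12 and 0.19 in Lalvin W27 at 28 °C. The last 2 ORFs of the list were given no family here, so the count of 8 HSP70 ORFs covers SSA, SSB, SSC1 and KAR2 only. YBR101C had -0.47, -1.28 and 1.34 in VIN7 and -0.67, 0.14 and -1.11 in Lalvin W27 at 12 °C, and at 28 °C it had 2.55 and 3.48 on arrays A and C of VIN7 and 0.22, 0.08 and 0.68 in Lalvin W27. YHR064C had -1.49, -1.71 and -0.19 in VIN7 and -0.15, -0.96 and -1.88 in Lalvin W27 at 12 °C, all below T73, and at 28 °C -0.15, 1.07 and 1.25 in VIN7 and -0.47, -0.42 and -1.37 in Lalvin W27. The mean of YBR101C in VIN7 at 28 °C was 3.01 from 2 arrays (adjusted p = 0.117), and it was -0.47 with array C turned, while array A alone gave 2.55. The mean of YHR064C there was 0.72, with -0.11 when array C was turned and 0.46 without it.

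The hybrids were then set against each other at each temperature, as the difference of their ratios to T73. No chaperone passed the limma test of this difference. At 12 °C the median difference of VIN7 minus Lalvin W27 over the 33 ORFs was 0.32 (all ORFs 0.07). Of these 18 were positive and 15 negative, near the shares of all ORFs (54.3% and 45.7%). The adjusted p was 1.00 for every chaperone and the fit called 0% of all ORFs. At an unadjusted p under 0.05 there were 2 chaperones higher in VIN7, YLL024C with a difference of 1.61 ± 0.75 and YKL073W with 1.33 ± 0.55 (limma SE), and 0 lower (all ORFs 1.51% and 0.714%). The arrays did not overlap for 2 of 32 ORFs with VIN7 above (YKL073W and YDR214W) and 2 with VIN7 below (YJR032W and YLL026W), among all ORFs 3.61% and 2.31%.

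At 28 °C the median difference of VIN7 minus Lalvin W27 was 1.48 over the chaperones (all ORFs 0.00), with 26 positive and 7 negative. All 3 arrays of VIN7 lay above all 3 of Lalvin W27 for 11 of 32 ORFs (YAL005C, YLL024C, YBL075C, YNL209W, YJL034W, YNL064C, YLR216C, YLL026W, YLR259C, YOR020C and YHR064C) and below for 1, YKL073W (all ORFs 7.36% and 6.39%). At an unadjusted p under 0.05 there were 13 higher and 0 lower (all ORFs 5.97% and 3.02%), and the fit called 0% of all ORFs. The difference of YAL005C was 2.75 ± 0.69 (limma SE, adjusted p = 0.477), that of YLL026W 2.47 ± 0.70 (adjusted p = 0.507) and that of YLR259C 2.45 ± 0.73 (adjusted p = 0.522). With array C of VIN7 turned these differences were 0.01 for YAL005C, 0.46 for YLL026W and 0.37 for YLR259C, and without that array 1.97, 1.64 and 1.53. With the sign of array C of VIN7 turned, the median difference was -0.25, 9 were positive and 24 negative, 0 ORFs had all VIN7 arrays above and 2 all below, and the unadjusted counts were 0 higher and 2 lower. Without that array the median difference was 0.72, 25 were positive and 8 negative, 11 ORFs had the VIN7 arrays above and 2 below, and the unadjusted counts were 4 higher and 2 lower. Fewer arrays separate more easily, and the shares of all ORFs with array C of VIN7 turned or left out were not counted. Leaving out array A of Lalvin W27 gave 6 higher, and a fit of only the arrays compared gave 11 higher (shares of all ORFs not counted).

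**Figure D4:**
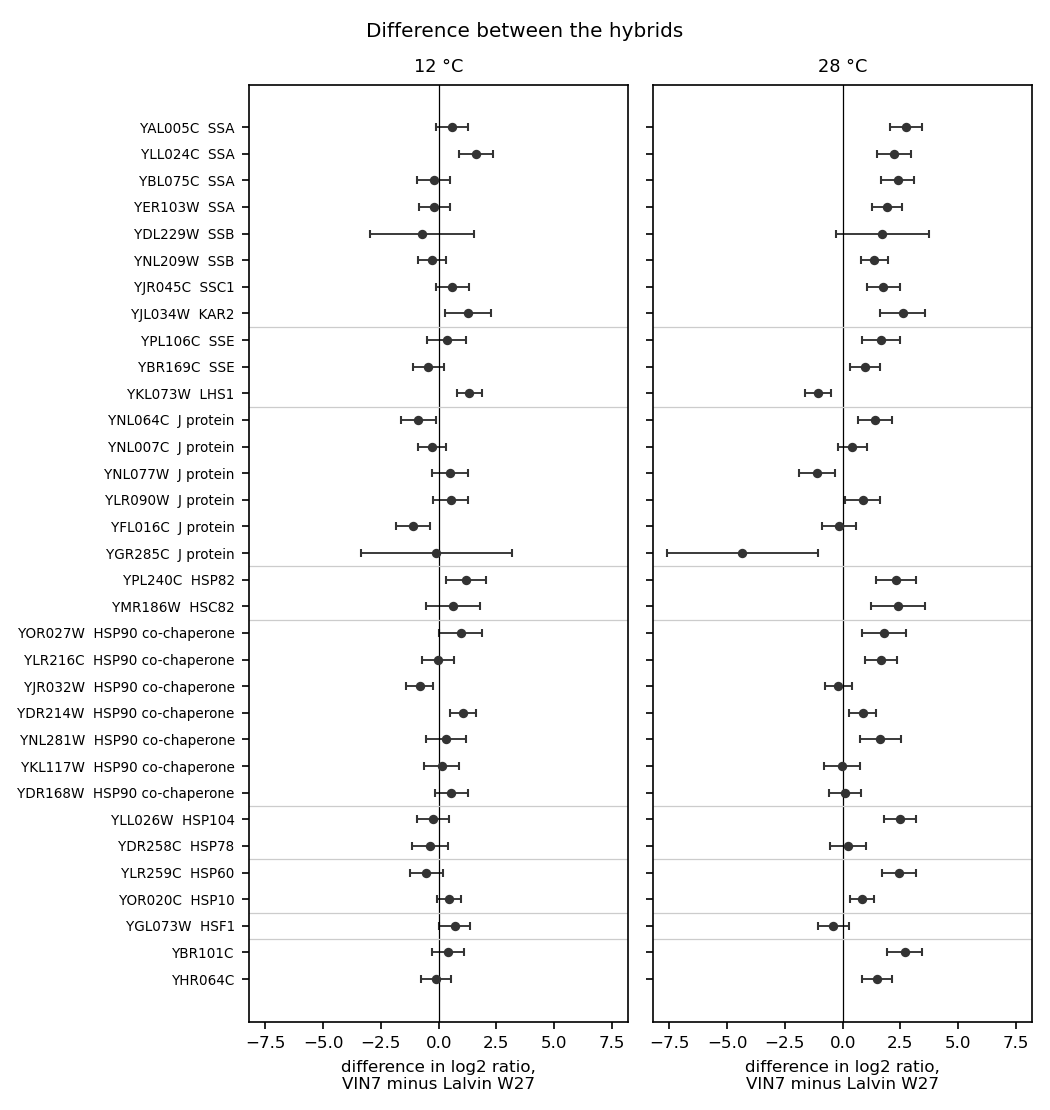
Difference in log2 ratio (VIN7 minus Lalvin W27) of the 33 chaperone ORFs at 12 °C (left) and 28 °C (right), with points at the difference of the group means and bars of 1 limma standard error. At 28 °C 26 of 33 points are to the right of 0, and the wide bars belong to YDL229W and YGR285C, each with an extreme value.

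The temperatures were compared within each hybrid as the ratio to T73 at 12 °C minus that at 28 °C. T73 was grown at each temperature too, so a difference can lie in the hybrid or in T73, which cannot be told apart. In VIN7 the median difference was -1.61 over the chaperones (all ORFs -0.17), with 6 positive and 27 negative (all ORFs 44.3% and 55.7%). All arrays of 12 °C were below all of 28 °C for 12 of 32 ORFs (YAL005C, YBL075C, YER103W, YNL209W, YBR169C, YPL240C, YLR216C, YLL026W, YDR258C, YLR259C, YOR020C and YHR064C) and above for 0 (all ORFs 12.1% and 8.57%). At an unadjusted p under 0.05 there were 0 higher and 16 lower at 12 °C (all ORFs 8.62% and 11.1%), and no chaperone passed after adjustment (0% of all ORFs called). In a fit of only the arrays compared 14 were lower (share of all ORFs not counted). YBL075C had the largest negative difference, -4.43 ± 0.70 (limma SE, adjusted p = 0.0742), followed by YER103W with -3.17 ± 0.66 and YMR186W with -3.16 ± 1.17.

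For this comparison the letters of the replicates were taken to pair the arrays of VIN7. The pairing rests on correlations of 0.217 to 0.573, the highest of them for letter C. These were not recomputed with array C of VIN7 at 28 °C turned or left out. With the letter as a block shared by all 12 arrays, YBL075C passed with an adjusted p of 0.0239. It was the single ORF called among all ORFs (0.0162%). That block also applied to the Lalvin W27 arrays, which the letters did not pair. In a blocked fit of the VIN7 arrays alone no chaperone passed. Neither blocked fit was run with array C of VIN7 at 28 °C turned or left out. With the sign of array C of VIN7 at 28 °C turned, the median difference was 0.11 with 18 positive and 15 negative, 0 ORFs had all arrays of 12 °C below and 1 had all above, the unadjusted counts were 1 higher and 1 lower, and the difference was -2.85 ± 1.20 for YBL075C, -1.08 for YER103W and 0.35 for YMR186W. Without that array the median difference was -0.86, 12 ORFs had all arrays of 12 °C below and 1 had all above, the unadjusted counts were 2 higher and 9 lower, and YBL075C was at -4.66 ± 0.79 (adjusted p = 0.251), YER103W at -2.73 and YMR186W at -1.48. With fewer arrays the temperatures separate more easily, and the shares of all ORFs with that array turned or left out were not counted. Without array C of VIN7 at 12 °C both YBL075C and YBR101C passed with an adjusted p of 0.0406. The share of all ORFs called in that fit was not counted.

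In Lalvin W27 the median difference of 12 minus 28 °C was -0.51 (all ORFs -0.19), with 7 positive and 26 negative (all ORFs 40.5% and 59.5%). All arrays of 12 °C were above those of 28 °C for 1 of 32 ORFs, YNL064C, and below for 2, YBL075C and YKL073W (all ORFs 4.91% and 9.94%). At an unadjusted p under 0.05 there were 0 higher and 2 lower (all ORFs 1.95% and 3.73%), and the fit called 0% of all ORFs. Without array A of 28 °C 4 were lower, and 1 was lower without array A or C of 12 °C or array B of 28 °C. Without array A of 12 °C 1 was also higher. With array C of VIN7 at 28 °C turned 1 was lower. The difference was -1.83 ± 0.70 for YBL075C and -1.57 ± 0.55 for YKL073W (limma SE, adjusted p = 0.752 each).

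**Figure D5:**
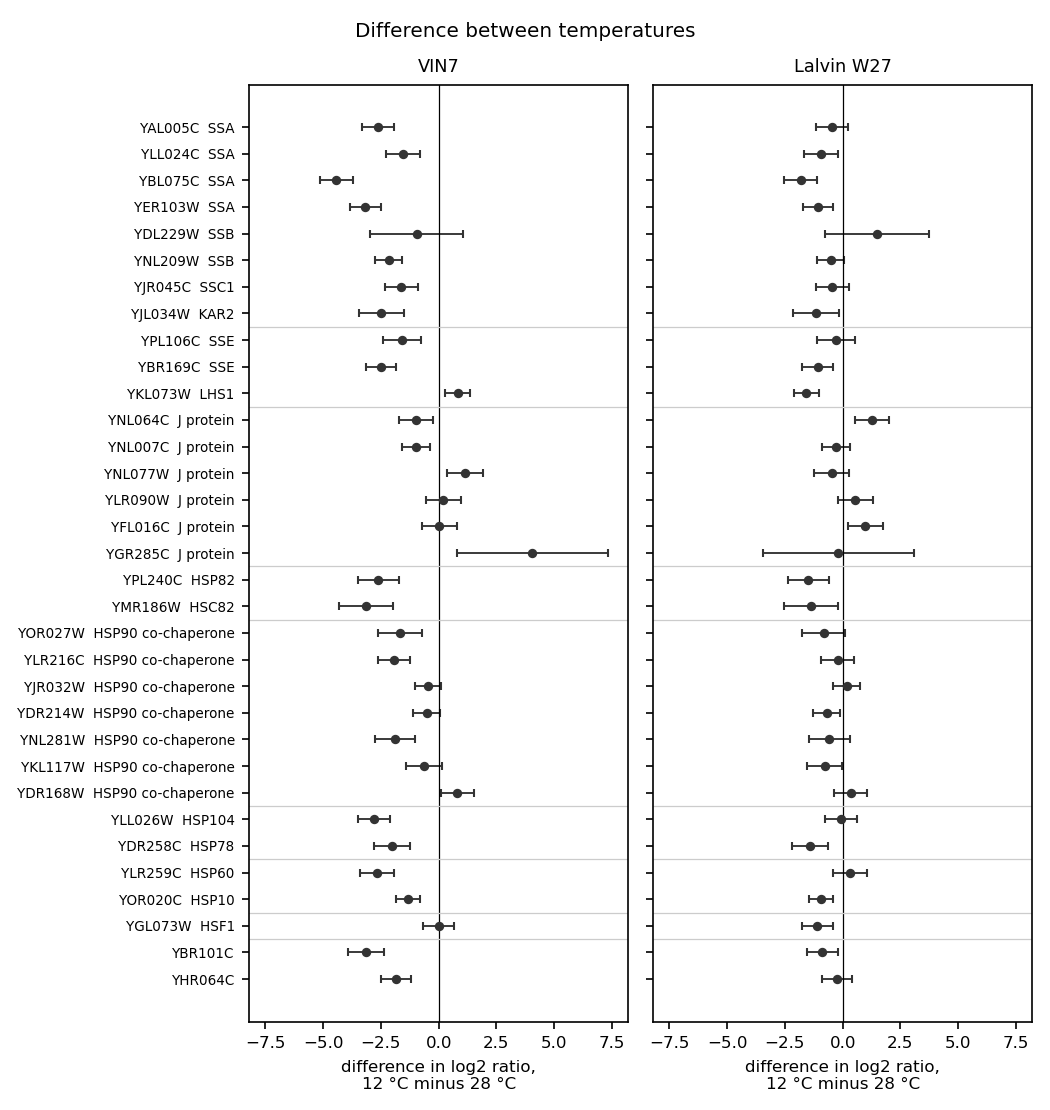
Difference in log2 ratio (12 °C minus 28 °C) of the 33 chaperone ORFs in VIN7 (left) and Lalvin W27 (right), with points at the difference of the group means and bars of 1 limma standard error. In VIN7 27 of 33 points are to the left of 0 (all ORFs 55.7%) and YBL075C is at -4.43. In Lalvin W27 26 of 33 are to the left (all ORFs 59.5%) with a median of -0.51.

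The ORFs lay on 14 chromosomes by their systematic names, with 5 each on XII and XIV. Chromosomes IV, V, IX, XIV and XV are described by the study as chimeric in Lalvin W27. On these lay 12 of the 33 ORFs, none of them on IX. In Lalvin W27 at 12 °C the 12 ORFs had a median of -0.41 and the other 21 a median of -0.85, and in VIN7 at 12 °C the medians of the same ORFs were -0.49 and -0.56. At 28 °C the medians were 0.08 for the 12 ORFs and -0.24 for the other 21 in Lalvin W27, and in VIN7 they were 0.87 and 1.27. The VIN7 medians at 28 °C include array C and were not computed with it turned or left out. The allele composition of these ORFs was not determined. No test was made of these differences.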

How the data were processed

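The deposited values are log2 ratios, 1 per ORF and array. According to the study's methods, the authors scanned spotted arrays of *S. cerevisiae* ORFs with GenePix, subtracted the background, normalized each array in Acuity and removed spots that were not found. Spot intensities did not enter, the brightness of a spot above its background is thus unknown, and precision is limited by how many arrays there are. The table held 6178 ORFs and 2 control features, and no more than 0.116% of values were equal between any 2 arrays. The deposited ratio is likely T73 (Cy5) over hybrid (Cy3), from the labelled dyes and from how the paper describes YMR210W and YIR007W, and every sign was turned to hybrid over T73. Arrays were grouped by title. The source field of the Lalvin W27 arrays at 28 °C names 12 °C, while their titles and descriptions, which were followed, name 28 °C. The labels call the arrays biological replicates, whereas the methods give fewer fermentations than hybridizations, so p-values measure the spread between arrays, part of which may be technical.

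The 2-fold cut-off of the methods was applied to the median of at least 2 arrays. Each ORF was tested with limma 3.58.1 in R 4.3.3, in 1 model with 4 group means, two-sided, with Benjamini-Hochberg adjustment over all ORFs with values on at least 2 arrays of each group compared. The fit was run on simulated data with independent normal noise and 1 SD per ORF in all groups. That run did not cover unequal spread between groups, a turned array or shared fermentations. Same-letter arrays of VIN7 at 12 and 28 °C deviated together from their group means (correlations of 0.217 to 0.573 over 3 pairs), which the other pairs of groups did not, so the letter was taken to pair the VIN7 arrays only. Alternatives were recentring, scaling, the sign of 1 array, leaving out each array, the mean, a 1.5-fold cut-off, a value on all 3 arrays, a replicate block, a robust prior, the compared arrays alone and, chosen after seeing the data, extreme values set to missing and a blocked fit of the VIN7 arrays.

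All 33 members are named. Values on every array are given for members past the 2-fold cut-off in a group with 1 sign on all its arrays, past it the same way in both hybrids at a temperature or called by limma, and for both HSP90 ORFs, HSP104 and HSF1. The members and lists were chosen with earlier results of these data known. Further lists of folding and stress genes were not used, because their systematic names could not be annotated here. For the same reason no promoter or protein sequences are shown.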

Additional observations from a re-analysis of the deposited data

Results flagged for a closer look

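Between the temperatures in VIN7, 5 ORFs were below T73 on all arrays of 12 °C and above T73 on all arrays of 28 °C. Over all ORFs 21.8% were below 0 on all arrays of 12 °C and 19.9% above 0 on all arrays of 28 °C. The share of all ORFs that met both conditions was not counted. The differences of 12 minus 28 °C were -4.43 for YBL075C and -3.17 for YER103W (SSA), -2.16 for YNL209W (SSB), -2.50 for YBR169C (SSE) and -2.66 for YLR259C (HSP60), with limma adjusted p-values of 0.0742 for YBL075C and 0.175 for the other 4. The median of the 33 chaperones on each array behaved in the same way, with a mean over arrays of -0.52 at 12 °C and 1.04 at 28 °C and a difference of -1.56, which was not tested. Each of these values includes array C of VIN7 at 28 °C, whose direction is not settled. With that array turned, none of the 5 ORFs was above T73 on all arrays of 28 °C, and the differences were -2.85 for YBL075C, -1.08 for YER103W, -0.72 for YNL209W, -0.82 for YBR169C and -0.58 for YLR259C, and 0.02 for the median. Without it they were -4.66, -2.73, -1.93, -1.84 and -1.74 in the same order, and -0.90 for the median.

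In Lalvin W27, YKL073W (LHS1) was below T73 on all arrays of 12 °C and above T73 on all arrays of 28 °C, a difference of -1.57. YNL064C (a J protein) did the opposite, with a difference of 1.28. The limma adjusted p was 0.752 for both. Of all ORFs in Lalvin W27, 25.1% were below 0 on all arrays of 12 °C and 19% above 0 on all of 28 °C. The opposite signs were held by 21.9% and 14.6%. The share of all ORFs that met either pair of conditions was not counted. Between the hybrids at 28 °C, YLR259C was above T73 on all arrays of VIN7 and below T73 on all arrays of Lalvin W27, a difference of 2.45 (adjusted p = 0.522) that also includes array C. The difference was 0.37 with that array turned and 1.53 without it. Of all ORFs at 28 °C, 19.9% were above 0 on all arrays of VIN7 and 14.6% below 0 on all of Lalvin W27. The share of all ORFs with both was not counted.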

How the results depend on the processing

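Of 195 alternatives over the counts and medians of the chaperones, 164 left the value within 1.5 times or within the spread between arrays. The 164 include limma counts that were 0 in the main fit and stayed 0. A median counted as unmoved within the SD of the array medians, which array C widens in VIN7 at 28 °C. There 1.12 against 0.32 without array C counted as unmoved. The total is therefore not a measure of how firm the results are. Leave-one-out ranges are the lowest and highest count. Shares of all ORFs under the alternatives were not counted, except with the block for VIN7 at 12 minus 28 °C. A looser cut-off passes more of all ORFs too, so these counts show only how far a result moved. In VIN7 at 12 °C, ORFs past the 2-fold cut-off with a higher ratio were 0 to 2 when an array was left out (2 without array A or C) and 1 at 1.5-fold, and with a lower ratio 14 at 1.5-fold. In Lalvin W27 at 12 °C they were 0 to 1 with a higher ratio (1 without array A) and 1 at 1.5-fold, and with a lower ratio 4 to 14 (4 without array C), 6 after recentring and scaling and 20 at 1.5-fold. In VIN7 at 28 °C higher ratios numbered 6 with array C turned, 8 to 21 when an array was left out and 19 by the mean, and lower ratios 1 with array C turned, 0 to 2 when an array was left out and 1 by the mean. The VIN7 median at 28 °C was -0.48 with array C turned. In Lalvin W27 at 28 °C higher ratios numbered 0 after recentring and scaling, 2 with extreme values missing, 0 to 3 when an array was left out, 0 by the mean and 3 at 1.5-fold, and lower ratios 2 to 6 when an array was left out (6 without array B) and 6 at 1.5-fold. The limma test called 1 chaperone, YBL075C, in VIN7 at 28 °C with a replicate block (adjusted p = 0.0265), and 0 to 1 when an array was left out. It called 1, YBL075C, for VIN7 at 12 minus 28 °C with a replicate block, and 0 to 2 when an array was left out. The block, 1 effect per letter over all 12 arrays, changed no other call of a chaperone, and the letters were taken to pair no groups but those of VIN7. Of 270 alternatives for the single ORFs past the cut-off in a group with 1 sign on all its arrays, 5 turned the sign, all with array C of VIN7 at 28 °C turned. Their means were -0.19 for YAL005C, -0.53 for YJR045C, -0.98 for YJL034W, -0.64 for YPL240C and -0.47 for YBR101C. YLL026W (-0.67) and YHR064C (-0.11), past the cut-off with mixed signs, turned too, so 7 of the 12 ORFs of VIN7 at 28 °C did. Depth and signal over background are unknown for these ratios.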
